A study of Homo sapiens with 6 samples.

Results

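Enzymes that write and erase methyl groups on histones, together with the protein arginine methyltransferases, were examined in EJ cells after knockdown of STIL. The members were every gene whose symbol begins with KDM, KMT, SETD or PRMT followed by a digit, plus SETDB1, SETDB2, NSD1, SUV39H1, SUV39H2, EHMT1, EHMT2 and DOT1L. This rule, which uses names only, found 49 of the 15953 genes in the expression tables. By name, 32 were counted as writers (methyltransferases) and 17 as erasers (demethylases). These counts include SETD3, which methylates a histidine, KMT2E, which has little or no catalytic activity, and KDM8, which has hydroxylase activity. Writers take a methyl group from S-adenosylmethionine and place it, in most cases, on a lysine or an arginine. Erasers remove it again, either with flavin (the KDM1 enzymes) or with iron and 2-oxoglutarate in a JmjC domain (the other KDM enzymes). The position decides what the mark is known for. Methylation of H3K4 marks promoters and enhancers, that of H3K36 and H3K79 marks transcribed genes, and methylation of H3K9 and trimethylation of H4K20 are found in silent chromatin. KMT2C, KMT2D and KDM6A are among the genes most often mutated in bladder cancer.

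EJ is an established human bladder cancer cell line. RNA-seq was performed on 3 libraries of cells with a stable lentiviral short hairpin against STIL (shSTIL) and 3 libraries of cells with a control hairpin (shNC). STIL is a centriole duplication protein, and the labels name no other treatment. The labels name both groups by short hairpin whereas the headings of the tables name them by siRNA, so the libraries were assigned by the labels. The hairpin sequence is not given in the sources used here, nor whether the 3 libraries of a group came from separate cultures, so P-values measure only the spread between these libraries. STIL itself had a log2 CPM (log2 of the reads of a gene scaled by library size, with a small pseudocount) of 5.98, 6.10 and 6.01 in the shNC libraries and 4.05, 4.06 and 4.01 in the shSTIL libraries. The groups were far apart, and 25.2% of the control level was left (log2 fold change -1.99, standard error (SE) 0.05, limma adjusted p = 6.1e-12). Of 12 urothelial and epithelial markers measured, the keratins KRT7, KRT8 and KRT18 were well expressed (mean log2 CPM of 6.5 to 9.32) and PPARG had 302 to 405 reads in a library, whereas KRT5, KRT20, UPK2, GATA3 and CDH1 had 0 to 9 reads and UPK1A, UPK1B and EPCAM 5 to 33. KRT7 (log2 fold change 0.49) and PPARG (0.26) were called higher and KRT8 (-0.70) and UPK1B (-1.12) lower in shSTIL cells. Of the mesenchymal markers, VIM (-0.68) and FN1 (-1.19) were called lower and CDH2 and ZEB1 were not called. The part of these shifts in the results was not tested. The leukocyte and endothelial markers measured (CD14, PECAM1, VWF and CDH5) had 0 to 11 reads.

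Most of the enzymes differed between the groups, and the shifts went both ways. Differences were tested with limma over all 15953 genes, the source of each adjusted p unless another tool is named, and a gene was called at a Benjamini-Hochberg adjusted p under 0.01. Of the 49 members, 18 rose and 15 fell in shSTIL cells, and 16 were not called. Over all genes, 47.1% were called in either direction, 23.5% as higher and 23.6% as lower, against 67.3%, 36.7% and 30.6% of the members. All members but KDM8 had a mean log2 CPM of 1 or more, where calls are more frequent in general. Of the 11319 genes above that level, 61.9% were called, 30.5% as higher and 31.4% as lower. For the 48 members above it the shares were 66.7%, 37.5% and 29.2%, which is close to that background. The median log2 fold change was 0.02 over the members and 0.01 over all genes, with a range of -0.84 (KDM8) to 0.88 (SETDB2). Cells of a bulk library were pooled, so fewer cells with a transcript and less of it per cell cannot be told apart.

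Large rises were found mainly among writers, which are also most of the members (32 of 49). A called rise of at least 0.5 in log2 was found for 25.0% of writers and 5.88% of erasers. A called fall of that size was found for 6.25% of writers and 17.6% of erasers. A called rise of at least 0.5 in log2 was found for 9 members (KMT2C, KMT2D, SETD7, SETDB2, NSD1, DOT1L, KMT5B, PRMT3 and the eraser KDM6B), which is 18.8% of the members with a mean log2 CPM of 1 or more against 11.1% of all genes at that level. A called fall of that size was found for 5 members (EHMT2, KMT5C, KDM1A, KDM3A and KDM8), of which 4 were above that level (8.33% against 14.1% of all genes). The groups were separate, with no shared range, for 40 members (81.6%, against 60.3% of all genes), and for 39 of the 48 above that level (81.2% against 75.7%). An exact permutation test of 3 libraries against 3 cannot give a p below 0.1. By role, 12 of 32 writers rose (37.5%) and 7 fell (21.9%), and 6 of 17 erasers rose (35.3%) and 8 fell (47.1%). In either direction 59.4% of writers and 82.4% of erasers were called. Of all genes with a mean log2 CPM of 1 or more, 61.9% were called, 30.5% as higher and 31.4% as lower. The counts of the smaller role groups below stand against the same shares. The median log2 fold change was 0.08 for writers and -0.05 for erasers. The writers' median was 0.021 with length and GC trends removed, and the erasers' median was -0.221 without shSTIL replicate 3 and -0.176 without shNC replicate 2. With all libraries and in these 2 fits, the erasers' median equalled the value of KDM4D, a gene not called. No test was run of whether writers and erasers differ.

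**Figure D1:**
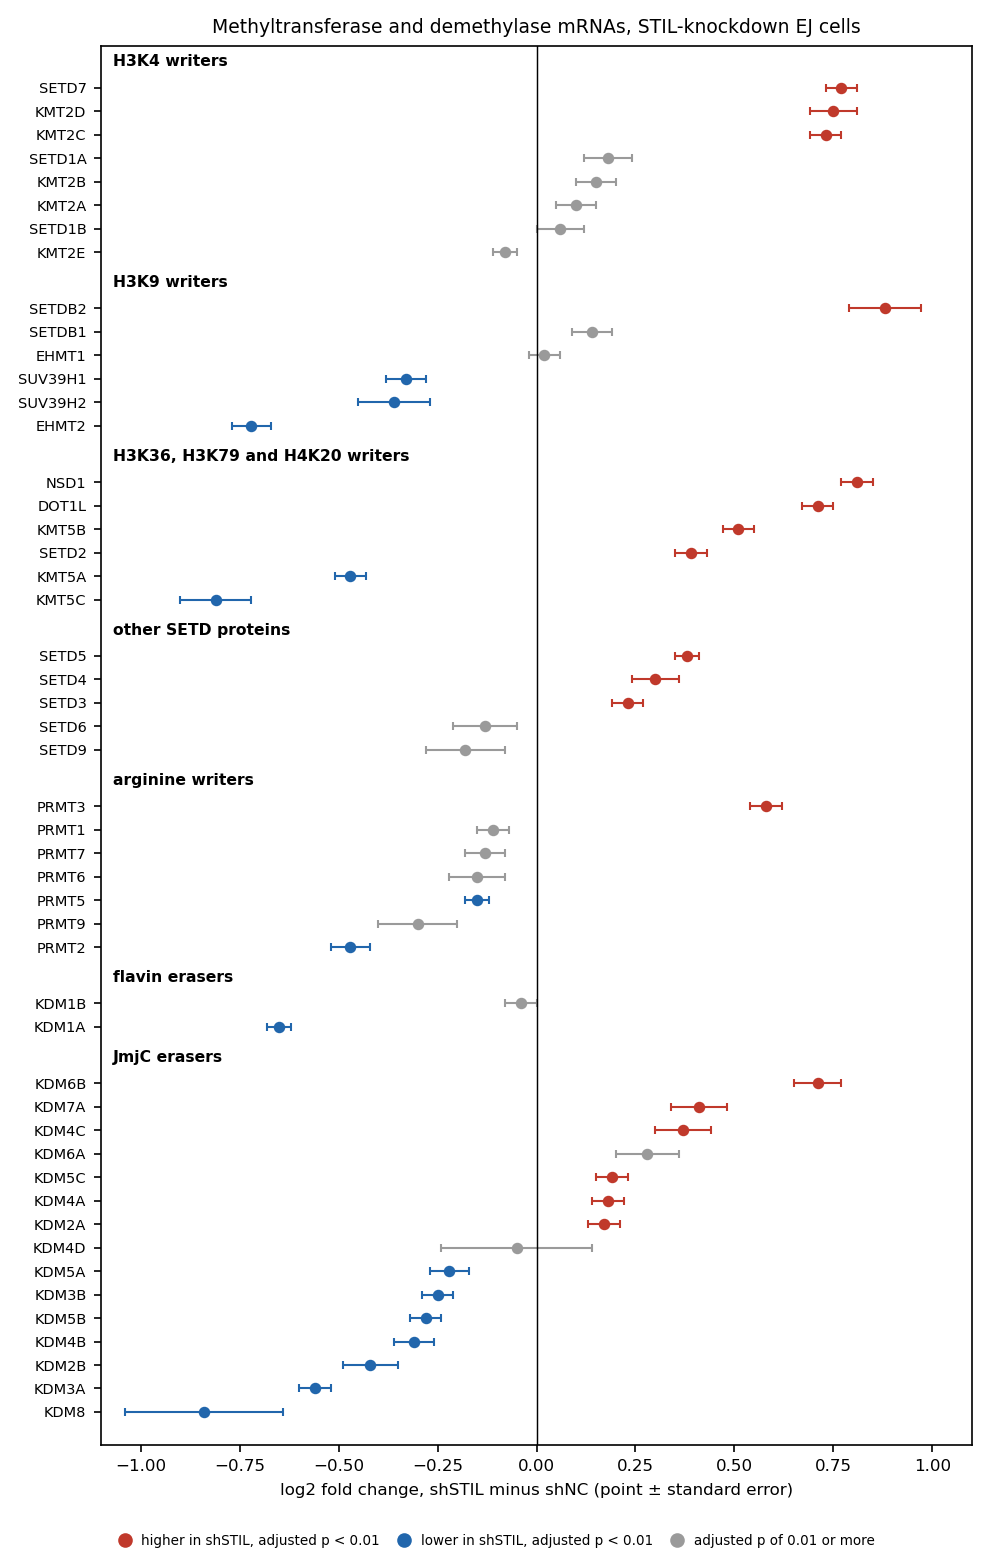
Log2 fold change (shSTIL minus shNC, horizontal axis) of each of the 49 enzymes, with bars of 1 SE from limma and 3 libraries per group. Genes are grouped by role and coloured by call at an adjusted p under 0.01. The values run from -0.84 for KDM8 to 0.88 for SETDB2, and most groups hold both red (higher) and blue (lower) points.

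The writers of H3K4 rose or were not called. KMT2C and KMT2D, the catalytic subunits of the complexes that place monomethyl H3K4 at enhancers, and SETD7, a monomethyltransferase of H3K4 and of several non-histone proteins, rose. KMT2C (chromosome 7, 152134922 to 152436005, minus strand) had a log2 CPM of 6.04, 6.08 and 6.02 in shNC libraries and 6.86, 6.75 and 6.74 in shSTIL libraries. KMT2D (chromosome 12, 49018975 to 49059774, minus strand) had 6.69, 6.62 and 6.57 in shNC and 7.51, 7.23 and 7.39 in shSTIL libraries. SETD7 (chromosome 4, 139495941 to 139606699, minus strand) had 5.94, 5.95 and 5.83 in shNC and 6.73, 6.63 and 6.68 in shSTIL libraries. For these 3 genes every shSTIL library was above every shNC library, and the widest spread within a group was that of KMT2D in shSTIL cells. The log2 fold changes were 0.73 for KMT2C (SE 0.04, adjusted p = 6.6e-09), 0.75 for KMT2D (0.06, adjusted p = 1.6e-07) and 0.77 for SETD7 (0.04, adjusted p = 5.5e-09), or 1.66-fold, 1.68-fold and 1.71-fold.

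The other H3K4 methyltransferases did not pass the threshold. The log2 fold changes were 0.10 for KMT2A and 0.15 for KMT2B, whose complexes contain menin, and 0.18 for SETD1A and 0.06 for SETD1B, which make most trimethyl H3K4. KMT2E, a relative with little or no catalytic activity, had -0.08. Their adjusted p ranged from 0.0212 (SETD1A) to 0.419 (SETD1B), and KMT2B had 0.0224. In total 3 of 8 members of this group rose, none fell, and their summed CPM was 706, 688 and 677 in shNC libraries and 909, 816 and 879 in shSTIL libraries, a ratio of 1.26. The level of the sum is largely set by KMT2A, KMT2D and KMT2E, which have the highest CPM of the group. Of these only KMT2D was called, and the rise of the sum came mostly from KMT2D, KMT2C and SETD7.

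The writers of H3K9 were divided. EHMT2 (G9a), which forms with EHMT1 (GLP) the main activity for dimethyl H3K9 in euchromatin, fell, as did both SUV39H enzymes of pericentric heterochromatin. EHMT2 (chromosome 6, 31879759 to 31897687, minus strand) had a log2 CPM of 6.98, 6.80 and 6.83 in shNC libraries and 6.17, 6.18 and 6.10 in shSTIL libraries. The groups were well apart, and 60.7% of the control level was left (log2 fold change -0.72, SE 0.05, adjusted p = 2.7e-08). EHMT1 lay at 6.42, 6.38 and 6.42 in shNC and 6.48, 6.35 and 6.44 in shSTIL libraries. Its groups overlapped, with a log2 fold change of 0.02 and an adjusted p of 0.743. Per kilobase of transcript, EHMT2 was above EHMT1 in shNC cells (28.4 ± 1.93 against 16.5 ± 0.273 CPM per kb, SD, n = 3), whereas in shSTIL cells the levels were 17.2 ± 0.507 and 16.7 ± 0.745.

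SUV39H1 and SUV39H2, which place trimethyl H3K9, were both lower. SUV39H1 had a log2 fold change of -0.33 (SE 0.05, adjusted p = 5.3e-05) and SUV39H2 of -0.36 (SE 0.09, adjusted p = 0.00316). The call of SUV39H2 held in only 1 of the 6 fits that left out a library. Its promoter holds a word of the cell cycle genes homology region (CHR), an element known from genes expressed in G2 and mitosis. The 30 bases around it are shown because SUV39H2, KMT5A and KDM2A are the called members that carry such a word. They are taken from the RefSeq promoter windows of GRCh38.p14, with the word in capitals.

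SUV39H2, chr10:14878856-14878885, plus strand: agaccgcgccagTTTGAAtgaaagctctac

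KMT5A, chr12:123384137-123384166, plus strand: gttgcaacttttTTCGAAagctgggtttcc

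KDM2A, chr11:67119269-67119298, plus strand: gagtctgacgggTTCAAAatggcggcggct

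The word begins at base 3 of the transcript, counted from 1 at the annotated start, in SUV39H2, at base 18 in KMT5A and at base 19 in KDM2A, where it lies on the other strand. The letters searched on both strands were TTTGAA and TTCGAA, in windows from 250 bases before to 50 bases after each annotated start. RefSeq windows were found for 47 of the 49 members. The CHR words were in 4 of their 66 windows (6.06%) and in 5742 of all 35116 windows (16.4%). Of the 15 lower members with a window 2 held one (SUV39H2 and KMT5A), and of the 17 higher members 1 (KDM2A). The fourth was KDM4D, which was not called. The words of the E2F site (TTTCGCGC, TTTGGCGC, TTTCCCGC and TTTGCCGC, both strands), known from genes of the G1/S transition, were in 2 of the 66 windows (3.03%) and in 3.31% of all windows. No called member had one. A match of letters is not a measured binding site.

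SETDB2, a less studied relative of SETDB1, was the 1 H3K9 enzyme that rose. SETDB1, which is brought to silenced repeats by TRIM28, had a log2 fold change of 0.14 and an adjusted p of 0.0257. SETDB2 (chromosome 13, 49444374 to 49495003, plus strand) had a log2 CPM of 3.33, 3.59 and 3.40 in shNC libraries and 4.26, 4.31 and 4.39 in shSTIL libraries. All shSTIL values were higher, and the rise was the highest among the 49 members at 1.84-fold (log2 fold change 0.88, SE 0.09, adjusted p = 1.4e-06). These values rest on 159 to 195 reads in shNC and 325 to 354 reads in shSTIL libraries. SETDB2 shares exons with the readthrough gene SETDB2-PHF11, so the split of reads between them is uncertain. The readthrough gene had 88 to 112 reads in a library and a log2 fold change of -0.14 (adjusted p = 0.408). Over the H3K9 group 1 of 6 members rose and 3 fell, and the summed CPM was 311, 294 and 302 in shNC and 261, 257 and 260 in shSTIL libraries, a ratio of 0.859.

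All 6 writers of H3K36, H3K79 and H4K20 were called, against 61.9% of all genes with a mean log2 CPM of 1 or more. NSD1, which places dimethyl H3K36, had a log2 CPM of 6.48, 6.56 and 6.57 in shNC libraries and 7.42, 7.29 and 7.32 in shSTIL libraries (chromosome 5, 177133025 to 177300215, plus strand). DOT1L, the H3K79 methyltransferase, had 5.83, 5.75 and 5.76 in shNC and 6.45, 6.5 and 6.51 in shSTIL libraries (chromosome 19, 2164149 to 2232578, plus strand). Both genes were higher in every shSTIL library, with a wide gap to the controls. The log2 fold change was 0.81 for NSD1 (SE 0.04, adjusted p = 2.3e-09) and 0.71 for DOT1L (SE 0.04, adjusted p = 5.8e-09). SETD2, which makes trimethyl H3K36 behind RNA polymerase II, rose by less, at 0.39 (adjusted p = 4.7e-06).

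The 3 enzymes of H4K20 did not move together. KMT5A, which places the first methyl group and is itself degraded in S phase, fell with a log2 fold change of -0.47 (SE 0.04, adjusted p = 2.4e-07). KMT5B and KMT5C extend that mark to the dimethyl and trimethyl states. KMT5B (chromosome 11, 68154863 to 68213828, minus strand) had a log2 CPM of 5.48, 5.50 and 5.45 in shNC and 5.98, 5.96 and 6.03 in shSTIL libraries. KMT5C (chromosome 19, 55339853 to 55348120, plus strand) had 4.48, 4.21 and 4.20 in shNC and 3.44, 3.53 and 3.50 in shSTIL libraries. Thus KMT5B was higher and KMT5C lower in each shSTIL library, with no overlap in either gene. KMT5B rose 1.43-fold (log2 fold change 0.51, SE 0.04, adjusted p = 2.0e-07), and 57.0% of the control level of KMT5C was left (log2 fold change -0.81, SE 0.09, adjusted p = 3.9e-06). Per kilobase the levels of KMT5B and KMT5C were 7.63 ± 0.148 and 8.56 ± 0.988 CPM per kb in shNC cells and 10.9 ± 0.273 and 4.86 ± 0.155 in shSTIL cells (SD, n = 3).

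Of the other SETD proteins, 3 of 5 rose and none fell, all by less than 0.5. SETD5, a chromatin regulator related to KMT2E, had 0.38 (adjusted p = 5.3e-07), SETD4 had 0.30 (adjusted p = 5.0e-04), and SETD3, which methylates a histidine of actin, had 0.23 (adjusted p = 3.7e-04). The call of SETD3 held in 2 of the 6 fits without 1 library. SETD6, which methylates the RELA subunit of NF-kB, had -0.13 and SETD9 had -0.18, and neither passed the threshold. SETD5 was the most abundant of the 5 per kilobase, at 36.7 ± 0.0768 CPM per kb in shNC and 47.7 ± 1.96 in shSTIL cells (SD, n = 3).

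Arginine methyltransferases showed 1 rise, 2 falls and 4 genes not called. PRMT3, a cytosolic enzyme that methylates the ribosomal protein RPS2, was the 1 that rose. PRMT3 (chromosome 11, 20387530 to 20509294, plus strand) had a log2 CPM of 5.33, 5.27 and 5.22 in shNC libraries and 5.85, 5.85 and 5.86 in shSTIL libraries. The shSTIL libraries were nearly equal and all above the controls, with a log2 fold change of 0.58 (SE 0.04, adjusted p = 1.1e-07). PRMT2 fell with a log2 fold change of -0.47 (adjusted p = 2.2e-06). PRMT5, the main enzyme of symmetric dimethylarginine, fell slightly, with a log2 fold change of -0.15 and 90.1% of the control level left (adjusted p = 0.00187). That call held in 1 of the 6 fits that left out a library.

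PRMT1, which makes most asymmetric dimethylarginine, was the most abundant member per kilobase in both groups, at 154 ± 4.18 CPM per kb in shNC and 142 ± 6.94 in shSTIL cells (SD, n = 3). Its log2 fold change was -0.11, with overlapping groups and an adjusted p of 0.0216. PRMT6, PRMT7 and PRMT9 had log2 fold changes of -0.15, -0.13 and -0.30, and adjusted p of 0.0886, 0.0478 and 0.0224. In all, 6 of 7 arginine writers had a negative log2 fold change, and the median was -0.15. Their summed CPM was 596, 574 and 593 in shNC and 538, 533 and 553 in shSTIL libraries, a ratio of 0.921.

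**Figure D2:**
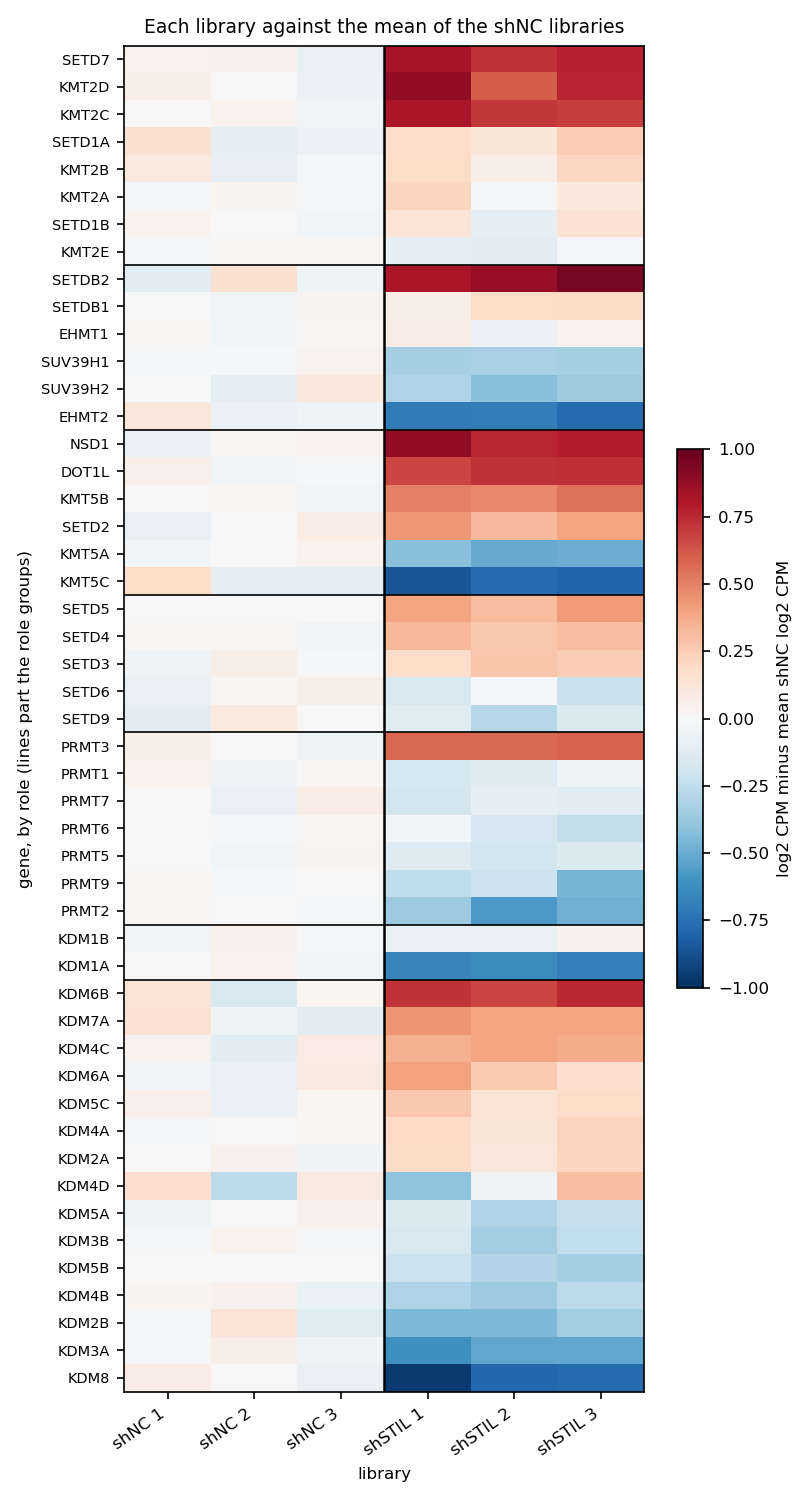
Log2 CPM of each enzyme in each library minus the mean of the 3 shNC libraries (colour, red higher and blue lower), with genes in rows by role and libraries in columns. The 3 shSTIL columns are alike for strongly changed genes such as SETDB2, NSD1, EHMT2 and KDM1A, whereas KDM4D differs in sign among the shSTIL libraries.

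Among the erasers, the flavin enzyme KDM1A fell and its paralog KDM1B was not called. KDM1A (LSD1) removes mono- and dimethyl groups from H3K4 within the CoREST complex. KDM1A (chromosome 1, 23019443 to 23083689, plus strand) had a log2 CPM of 7.12, 7.16 and 7.10 in shNC libraries and 6.47, 6.49 and 6.44 in shSTIL libraries. Spread within a group was small beside the gap between them, and 63.5% of the control level was left (log2 fold change -0.65, SE 0.03, adjusted p = 2.7e-09). KDM1B (LSD2) had overlapping groups and a log2 fold change of -0.04, with an adjusted p of 0.497. Per kilobase, KDM1A went from 45.6 ± 0.953 to 29 ± 0.508 CPM per kb, and KDM1B lay at 20.6 ± 0.564 in shNC and 20.1 ± 0.993 in shSTIL cells (SD, n = 3).

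Of the 15 JmjC erasers, 6 were called higher (40.0%) and 7 lower (46.7%). Among all genes with a mean log2 CPM of 1 or more, which holds for each of the 15 but KDM8, the shares were 30.5% and 31.4%. KDM6B (JMJD3), an inducible demethylase of H3K27, rose most. KDM6B (chromosome 17, 7839904 to 7854796, plus strand) had a log2 CPM of 6.0, 5.72 and 5.89 in shNC libraries and 6.59, 6.54 and 6.62 in shSTIL libraries. The shNC libraries varied more than the shSTIL libraries, but the groups did not overlap (log2 fold change 0.71, SE 0.06, adjusted p = 2.5e-07). KDM6A (UTX), its X-linked relative, had a log2 fold change of 0.28 and missed the threshold with an adjusted p of 0.0106. It passed with edgeR (adjusted p = 0.00277), quantile normalization (0.00549), a prior count of 0.5 (0.0093) and among genes with a mean log2 CPM of 1 or more (0.0036). It did not pass with DESeq2 (0.0228), the replicate block (0.0256), length and GC trends removed (0.0285), limma without the trend (0.0326) or median centring (0.0108). None of the 6 fits without 1 library called KDM6A (adjusted p up to 0.0768). Its values were 3.89, 3.85 and 4.01 in shNC and 4.32, 4.18 and 4.08 in shSTIL libraries, which did not overlap.

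Demethylases of H3K9 and H3K36 went both ways. KDM3A, a demethylase of mono- and dimethyl H3K9 that hypoxia induces, fell. KDM3A (chromosome 2, 86440647 to 86492716, plus strand) had a log2 CPM of 6.14, 6.22 and 6.13 in shNC and 5.55, 5.64 and 5.64 in shSTIL libraries. Every shSTIL value was below every shNC value, and 68.0% of the control level was left (log2 fold change -0.56, SE 0.04, adjusted p = 1.5e-07). Its paralog KDM3B fell by 0.25 (adjusted p = 2.5e-04). Of the KDM4 enzymes, which act on trimethyl H3K9 and H3K36, KDM4A (log2 fold change 0.18) and KDM4C (0.37) rose, KDM4B (-0.31) fell and KDM4D (-0.05, adjusted p = 0.848) was not called. KDM2A, which acts on H3K36 and binds CpG islands, rose by 0.17 (adjusted p = 0.00161), and its paralog KDM2B, a subunit of a Polycomb complex, fell by 0.42 (adjusted p = 1.5e-04). KDM7A, which acts on H3K9 and H3K27, rose by 0.41 (adjusted p = 2.7e-04). The calls of KDM2A, KDM2B, KDM3B, KDM4A, KDM4C and KDM7A held in 1 to 3 of the 6 fits that left out a library.

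Demethylases of H3K4 in the KDM5 family also went both ways. KDM5A and KDM5B fell by 0.22 and 0.28 in log2 (adjusted p = 0.00106 and 5.2e-05), and the call of KDM5A held in 1 of the 6 fits without 1 library. KDM5C, an X-linked member, rose by 0.19 (adjusted p = 0.00118), and its call was lost in all 6 fits that left out a library. KDM8 (chromosome 16, 27203495 to 27221768, plus strand), a JmjC protein with hydroxylase activity, was the least expressed member, with 24 to 27 reads in shNC and 13 to 15 in shSTIL libraries. Its log2 CPM was 0.85, 0.78 and 0.70 in shNC and -0.18, -0.01 and 0.01 in shSTIL libraries. The groups did not overlap (log2 fold change -0.84, SE 0.20, adjusted p = 0.00269). At this depth the call depended on the tool, since DESeq2 on the recovered reads gave an adjusted p of 0.0371.

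The balance within pairs of closely related enzymes was compared in each library as the difference of their log2 CPM, which does not depend on the scaling of libraries. Of 12 pairs, 7 had differences that did not overlap between the groups, each with the smallest exact two-sided permutation p that the design allows (p = 0.1). Separate groups were common in these data (75.7% of single genes with a mean log2 CPM of 1 or more), so the count of pairs is no result in itself. KMT5B against KMT5C moved most, from 1.00, 1.29 and 1.25 in shNC to 2.55, 2.43 and 2.53 in shSTIL libraries. EHMT1 against EHMT2 went from -0.56, -0.42 and -0.41 to 0.32, 0.17 and 0.34, a scale whose 0 depends on transcript length, and per kilobase EHMT2 was not below EHMT1 in shSTIL cells by its mean. SETDB1 against SETDB2 went the other way, from 1.93, 1.64 and 1.89 to 1.07, 1.13 and 1.06. These pairs thus shifted by 1.32, 0.74 and -0.74 in log2 between group means. KDM1A against KDM1B shifted by -0.62, KDM2A against KDM2B by 0.59, KDM6A against KDM6B by -0.43 and KDM3A against KDM3B by -0.31.

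The remaining 5 pairs overlapped between the groups. The shift was 0.03 for SUV39H1 against SUV39H2, -0.02 for KMT2C against KMT2D and 0.06 for KDM5A against KDM5B, where both genes of each pair had been called in the same direction. It was 0.12 for SETD1A against SETD1B and -0.05 for KMT2A against KMT2B, of which no gene was called. Both genes were called in opposite directions in 2 of the 12 pairs (KMT5B with KMT5C, and KDM2A with KDM2B). RSEM divides reads that fit both paralogs, so balances of close paralogs carry that uncertainty.

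**Figure D3:**
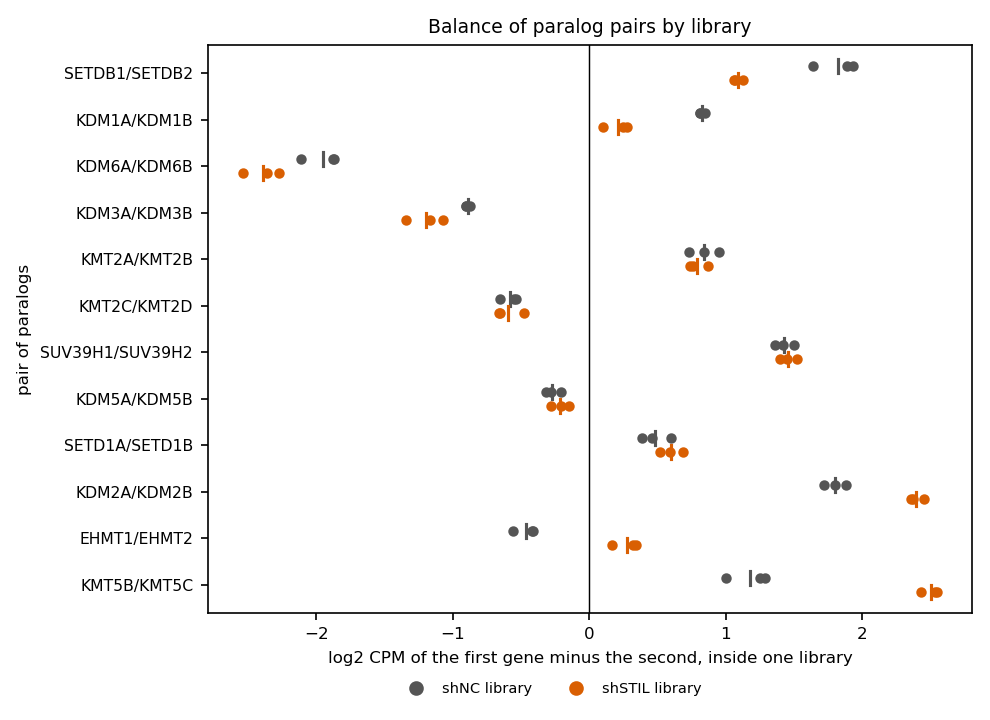
Log2 CPM of the first gene minus that of the second within each library (horizontal axis) for 12 pairs of related enzymes. Points are single libraries, grey for shNC and orange for shSTIL, and short lines mark group means. The grey and orange points are separate for 7 pairs, by 1.32 between means for KMT5B/KMT5C. The position of 0 depends on the lengths of both transcripts.

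The summed level of a group depends on its most abundant genes. The 32 writers summed to 2342, 2296 and 2316 CPM in shNC and 2662, 2522 and 2644 in shSTIL libraries, a ratio of 1.13. The 17 erasers summed to 1137, 1135 and 1123 CPM in shNC and 1115, 1060 and 1101 in shSTIL libraries, a ratio of 0.965. The groups did not overlap in either sum, and the writers' gap was the wider. The erasers' sums nearly touched, at 1123 in an shNC and 1115 in an shSTIL library. Separate groups were common in these data (75.7% of single genes with a mean log2 CPM of 1 or more), so the separation is no result in itself. Among the writers, the sum of the H3K36, H3K79 and H4K20 enzymes had the highest ratio at 1.30. Among the erasers, the flavin enzymes had a ratio of 0.758 and the JmjC enzymes 1.01, with overlapping groups for the latter.

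Transcripts of members that rose were longer, by their median, than those of members that fell. The longest coding transcript in GENCODE 29 had a median of 6770 bases for the 18 higher members, 3140 for the 15 lower and 4338 for the 16 not called. For genes with a mean log2 CPM of 1 or more, the medians were 4080, 3121 and 3434. Over the 49 members the Pearson r between log2 fold change and log10 length was 0.54, and over 11091 genes it was 0.14. These correlations are across genes measured in the same 6 libraries, which are not independent, and are given as a description. KMT2D, KMT2C and NSD1 are among the longest. With the trends on length and GC content removed from each library, their log2 fold changes were 0.62, 0.56 and 0.66. No member lost its call, and KMT2E (lower), SETD1A and KMT2B (both higher) gained one. KMT2A changed sign, from 0.10 to -0.07, and was not called in either fit. The log2 fold changes of KDM5A, KDM5B and KDM2A moved most in proportion among called members, to -0.35, -0.41 and 0.11.

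**Figure D4:**
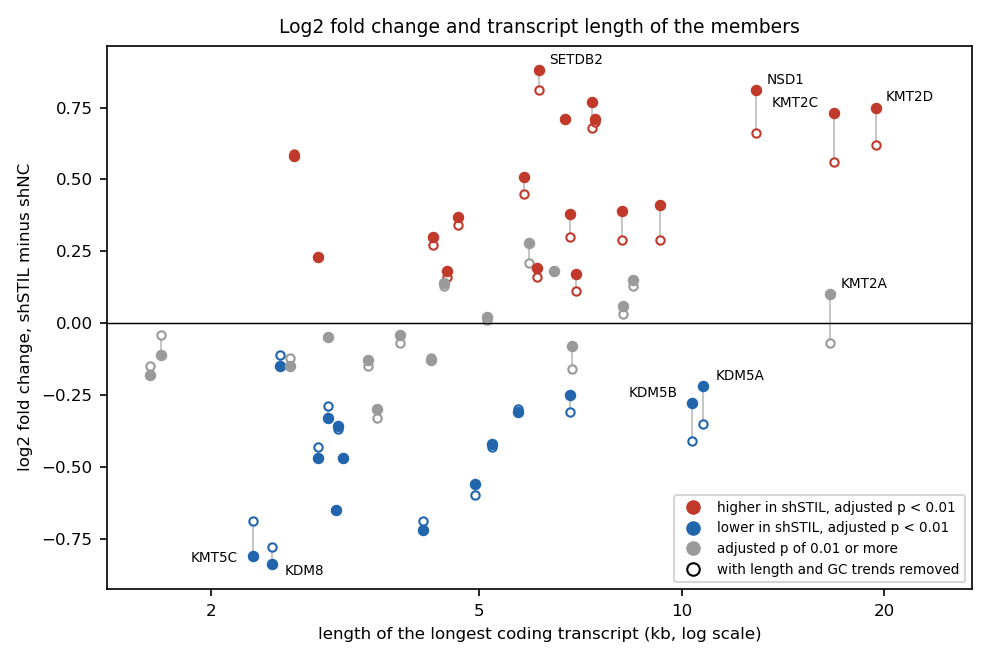
Log2 fold change (shSTIL minus shNC, vertical axis) of the 49 enzymes against the length of the longest coding transcript in kilobases (horizontal log axis). Filled points are the values as deposited, coloured by call, and open points joined to them are the values with length and GC trends removed. KMT2D, KMT2C and NSD1 lie at the upper right and move down to 0.62, 0.56 and 0.66.

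Genes of DNA replication and proliferation were also described, from a list chosen with earlier results of these data known. Of all genes with a mean log2 CPM of 1 or more, 31.4% were called lower. All 13 markers on the list (MCM2 to MCM7, PCNA, TYMS, RRM2, GINS2, CDC6, MKI67 and TOP2A) were lower in shSTIL cells, with log2 fold changes from -2.09 to -0.76 and a median of -1.41. Their summed CPM was 3922 to 3942 in shNC and 1712 to 1791 in shSTIL libraries. Some enzymes, such as KMT5A, are known to vary over the cell cycle. The part of a change in cell cycle phase in the enzymes' values was not tested.

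Partners and related enzymes were described from lists of 51 measured genes. Of these, 19 rose, 19 fell and 13 were not called (74.5% called), with a median log2 fold change of -0.04. All had a mean log2 CPM above 1, where 61.9% of all genes were called, 30.5% as higher and 31.4% as lower, and the counts of the shorter lists stand against the same shares. Of 16 enzymes of the same classes with other names, 9 rose and 4 fell. The fall of SMYD2 (-0.26) was called in 0 of the 6 fits without 1 library, and that of SMYD4 (-0.34) in 1. JMJD1C, a JmjC relative of KDM3A, had a log2 CPM of 6.92, 7.01 and 7.04 in shNC and 8.04, 7.90 and 7.88 in shSTIL libraries. The gap was wide, and its log2 fold change of 0.95 was above that of any member (SE 0.04, adjusted p = 1.1e-09). JMJD6, a lysyl hydroxylase of splicing factors, rose by 0.64 (adjusted p = 4.8e-06) and ASH1L, a writer of H3K36, by 0.63 (adjusted p = 6.0e-07). RIOX1, a ribosomal oxygenase, fell by 0.56 (adjusted p = 3.2e-04). None of the 6 fits without 1 library called it, and its adjusted p reached 0.0258 there. NSD2, a paralog of NSD1, rose by 0.17 (adjusted p = 6.2e-04), but its call held in 2 of the 6 fits without 1 library and was lost with length and GC trends removed (log2 fold change 0.06, adjusted p = 0.0519). The arginine methyltransferase CARM1 was not called (log2 fold change -0.04).

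Of 13 partners in the KMT2 and SETD1 complexes (COMPASS and its relatives), 2 rose and 6 fell. The fall of CXXC1 (-0.42) was called in 0 of the 6 fits without 1 library, and the rise of BOD1L1 (0.32) in 2. The core subunits WDR5 (log2 fold change 0.02), ASH2L (-0.20), DPY30 (-0.07) and RBBP5 were not called. HCFC1, a subunit of the SETD1 and KMT2A complexes, fell by 0.52 (adjusted p = 1.4e-06), and PSIP1, which ties KMT2A and menin to chromatin, by 0.51 (adjusted p = 1.3e-08). Within this family of complexes, PAGR1, PAXIP1 and NCOA6 are subunits of those of KMT2C and KMT2D. PAGR1 fell by 0.48 (adjusted p = 7.5e-06) and PAXIP1 by 0.38 (adjusted p = 2.0e-05), while NCOA6 rose by 0.39 (adjusted p = 1.0e-06).

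Of 11 partners of repressive enzymes, 5 rose and 4 fell. The rise of MORC2 (0.19) was called in 0 of the 6 fits without 1 library, and that of PHF21A (0.25) in 5. TRIM28, the corepressor that recruits SETDB1, had a log2 CPM of 8.70, 8.68 and 8.72 in shNC and 8.04, 8.07 and 8.07 in shSTIL libraries. The libraries of each group were almost equal, and the log2 fold change was -0.64 (SE 0.03, adjusted p = 6.9e-10). WIZ, a zinc finger partner of EHMT1 and EHMT2, fell by 0.35 (adjusted p = 1.3e-05), whereas ZNF644, another partner, rose by 0.47 (adjusted p = 1.4e-05), a call that held in 3 of the 6 fits without 1 library. The HP1 proteins that bind methylated H3K9 were divided, with CBX1 (-0.44) and CBX3 (-0.36) lower and CBX5 (0.32, or 0.18 with length and GC trends removed) higher. RCOR1, the CoREST scaffold of KDM1A, was not called (log2 fold change -0.02).

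The partners of PRMT5 were all called. WDR77 (MEP50), its obligate cofactor, fell by 0.47 (adjusted p = 1.6e-05), and the substrate adaptors CLNS1A and COPRS fell by 0.30 and 0.28. With length and GC trends removed COPRS fell by 0.18. RIOK1, the adaptor that competes with CLNS1A, had a log2 CPM of 5.34, 5.26 and 5.35 in shNC and 6.12, 6.09 and 6.15 in shSTIL libraries. It stood clear of the controls in every library, with a log2 fold change of 0.81 (SE 0.04, adjusted p = 3.4e-09). In the cycle that makes the methyl donor, 2 of 7 genes rose and 2 fell. The fall of AHCY (-0.12) was called in 1 of the 6 fits without 1 library. It was lost with length and GC trends removed (adjusted p = 0.0188). The rise of MTRR (0.26) was called in 4 of the 6 fits. MAT2A, which makes S-adenosylmethionine, rose by 0.47 (adjusted p = 2.9e-08), and MTR, which remakes methionine from homocysteine, fell by 0.50 (adjusted p = 2.6e-07).

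**Figure D5:**
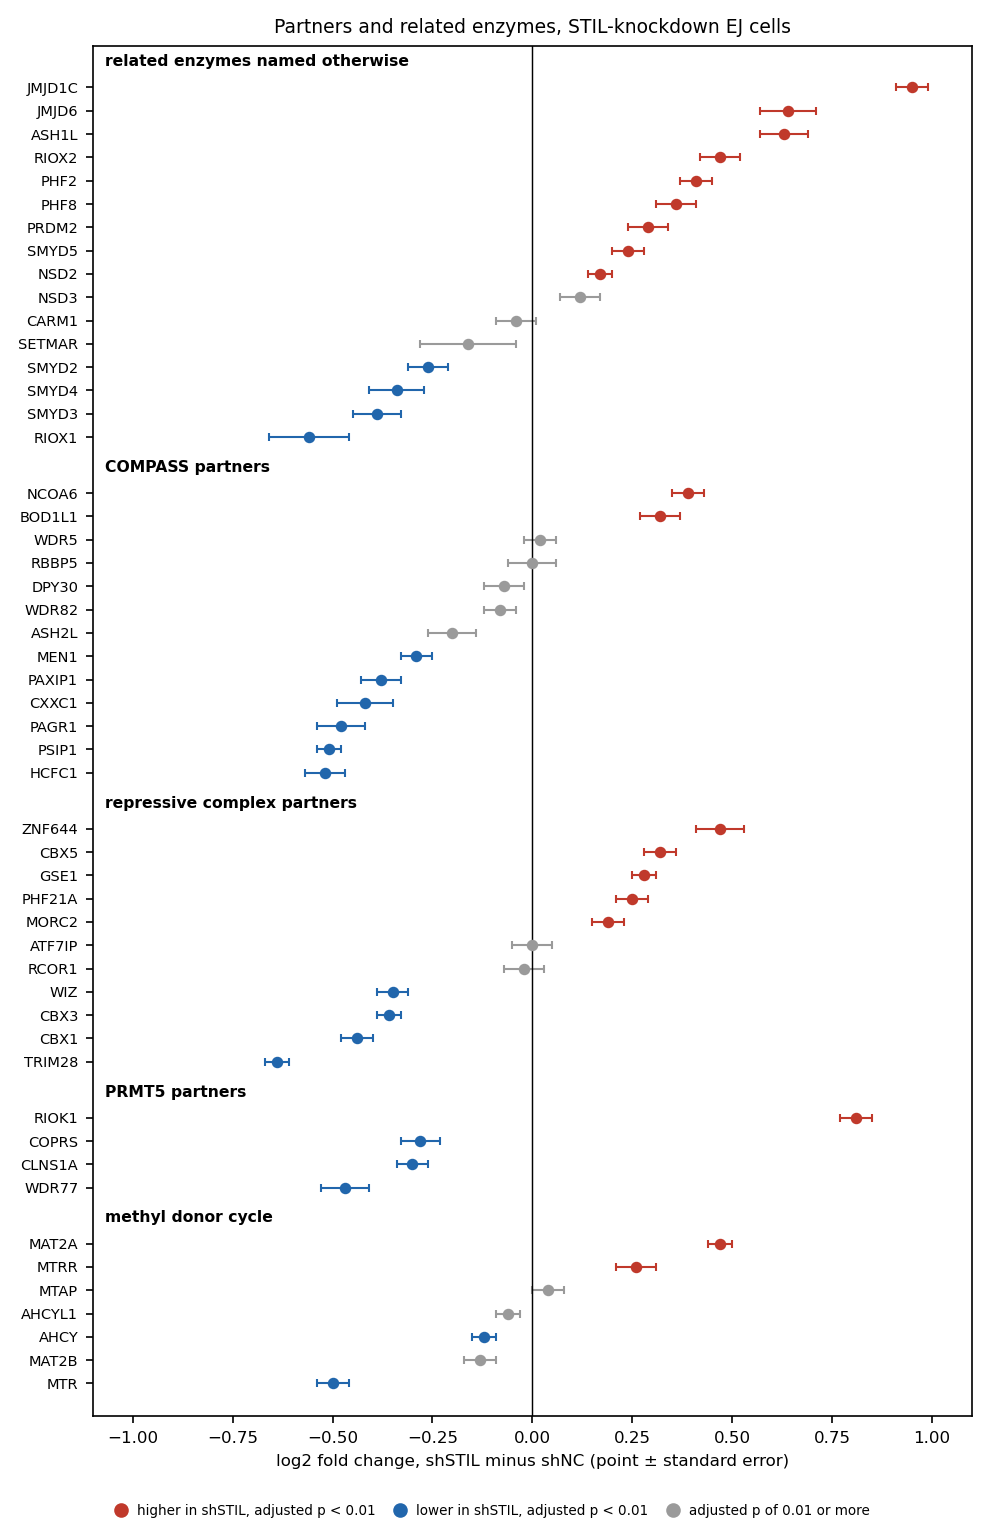
Log2 fold change (shSTIL minus shNC, horizontal axis) of the 51 partner and related genes, with bars of 1 SE from limma and 3 libraries per group, coloured by call. JMJD1C (0.95) and RIOK1 (0.81) lie farthest to the right and TRIM28 (-0.64) farthest to the left.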

How the data were processed

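RNA-seq of 6 libraries (3 shNC, 3 shSTIL) was analysed. The authors aligned reads by Bowtie2 and used RSEM to estimate how many belonged to each gene, and the submitters' processing notes name hg38 and limma. The deposited log2 CPM of 15953 genes were scaled by the authors, and recomputing them with TMM and a prior count of 2 differed by at most 8e-05. The pseudocount makes fold changes of low genes too small. The deposited estimated counts, for 4 libraries, hold 4 genes more and served only as a check of the reads recovered from the spacing of the log2 CPM, which differed from them by at most 0.271 reads. Of the recovered values, 86.4% to 87.0% were whole within 0.01 read. The depth was 16214755 to 16431226 reads in shNC and 16734453 to 16901618 in shSTIL libraries. Libraries of 1 group differed by more than sampling noise (chi-square of 1.67 to 3.39 per degree of freedom over 6 pairs).

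The groups were compared with limma 3.58.1 (lmFit, eBayes with a trend) in R 4.3.3 over all genes, with Benjamini-Hochberg adjustment and a threshold of 0.01, the threshold of the study. As alternatives, edgeR 4.0.16 (quasi-likelihood) and DESeq2 1.42.0 were run on recovered reads rounded to whole numbers, and limma was run without the trend, with a filter, another pseudocount or scaling, a replicate block, or without 1 library. A lowess correction (span 0.3) for GC content and transcript length was chosen after seeing the data and covered the 97.2% of genes with a coding transcript. Members with a called log2 fold change of at least 0.5 were named with every library, other members by their fold change. Of the partner lists, genes with such a change were to be named, and further partners of the enzymes described were named after their values were seen. Members and lists were chosen with earlier results of these data known. Libraries were also simulated, with a fixed dispersion and far fewer changed genes than in the data. There limma called 5.96% of genes changed 1.2-fold, 39.1% of those changed 1.5-fold and 75.3% of those changed 2-fold. The shares for edgeR were 56.9%, 94.8% and 98.4%. All 42 false calls of limma in the simulation, of 273 calls, had a mean log2 CPM under 1. These shares do not carry over to the data, where 47.1% of genes were called and the adjusted threshold is therefore less strict. In the data limma called smaller changes, such as PRMT5 at 1.11-fold. Most members not called had folds under 1.2. CPM per kb used the longest coding transcript of GENCODE 29, and coordinates are of GRCh38.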

Additional observations from a re-analysis of the deposited data

How the results depend on the processing

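Of the 33 called members, 21 kept their direction and call under every alternative, 12 lost the call in at least 1 (KDM2A, KDM2B, KDM3B, KDM4A, KDM4C, KDM5A, KDM5C, KDM7A, KDM8, PRMT5, SETD3 and SUV39H2), and 0 changed sign. Of the 14 with a log2 fold change of at least 0.5, 13 kept it, and KDM8 lost it with DESeq2. Without 1 library, 12 to 15 members were higher and 10 to 13 lower, against 18 and 15 with all 6. The number of all genes called was 4900 to 5638 in these fits, against 7509, lowest without shSTIL replicate 3. Partner and related genes gave 13 to 17 higher and 14 to 15 lower, against 19 and 19. The median log2 fold change of writers (0.081 with all libraries) ranged from 0.035 to 0.132, and that of erasers (-0.048) from -0.221 without shSTIL replicate 3 to -0.019, with -0.176 without shNC replicate 2. With GC content and length removed the writers' median was 0.021. With all libraries, the genes at each median were not called. The erasers' median equalled the value of KDM4D (54 to 88 reads), also in the fits that gave -0.221 and -0.176. The writers' median lay midway between SETD1B (0.062) and KMT2A (0.10), and KMT2A had -0.07 with GC content and length removed. Among genes not called, EHMT1 reversed to -0.011 without shSTIL replicate 1 and ranged up to 0.052 without replicate 2, KDM4D to 0.002 with quantile normalization, 0.037 without shNC replicate 1 and 0.126 without shSTIL replicate 1, and KMT2A to -0.07 with GC content and length removed. Calls were gained in at least 1 alternative by KDM6A, KMT2B, KMT2E, PRMT1, PRMT9, SETD1A and SETDB1. With edgeR 21 members were higher and 16 lower, and with DESeq2 18 and 14.

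Same-numbered libraries did not deviate together (correlations of -0.121, -0.055 and -0.107, and 0 of 6 libraries correlated best with their own number). No pairing by number was thus detected, but the labels do not say whether same-numbered libraries were prepared together. With the replicate block, 18 members were higher and 15 lower and no member changed its call, 6898 of all genes were called, the partner and related genes gave 19 higher and 18 lower, and the medians were 0.081 for writers and -0.048 for erasers.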
